A study of Homo sapiens with 2 samples.

Results

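The genes of the translation initiation and elongation factors were compared between bort-treated and untreated leukaemic cells. They were taken as every gene of the deposited table whose symbol begins with EEF or with EIF and a digit from 1 to 6, without hyphenated read-through names, which gave 65 of 10987 genes. The study sequenced RNA from 1 culture labelled THP1 and treated with bortezomib (bort, an inhibitor of the proteasome) for 24 h, and from 1 untreated culture of the same label. THP1 is a human monocytic leukaemia line that carries the MLL-AF9 fusion, and the dose given to the sequenced culture is not given in the sources used here. Each culture gave a single library, so differences could not be set against replicate error, no test was made, and every statement compares 2 libraries rather than 2 conditions. Values are FPKM, fragments scaled to transcript length and to the mapped total of the library. The scaling to length lets levels of different genes be set side by side, but differences in GC content and shared sequence remain. The number of reads behind the values is unknown. Log2 differences are on the log2(FPKM + 1) scale, bort-treated minus untreated, and understate the change of genes with low FPKM. "Higher" and "lower" are used for values of the bort-treated library against the untreated one, and where a pair of FPKM values is given the untreated value comes first. Several markers of the labelled cell type were not listed, and those listed summed to far less than the erythroid ones. Of 16 monocytic and myeloid markers 7 were listed, with CD14, CSF1R and MPO not among them. The FPKM of the 7 summed to 25.6 in the untreated and 65.3 in the bort-treated library. Of the 7, LYZ at 7.61 and 28.7 FPKM and CD68 at 5.94 and 20.2 FPKM were higher by 2-fold, beside 8.08% of all genes. None of the 7 was lower by 2-fold, with CD33 at 6.45 and 5.22 FPKM and SPI1 at 4.42 and 8.44 FPKM. Of 18 erythroid markers 16 were listed, and these summed to 5147 and 4474 FPKM. Among the 16, 5 were past 2-fold in the lower direction, beside 10.2% of all genes, with KLF1 the lowest at 147 and 17.4 FPKM, and none was past 2-fold in the higher direction. In the other direction HBE1 and RHAG passed 1.5-fold, with log2 differences of 0.74 and 0.71, and HBG1 and HBG2 differed by 0.05 and -0.02. The part of these marker differences in the values below was not tested, and a smaller share of a cell type cannot be told apart from less RNA per cell.

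Translation of an mRNA begins when eIF2 brings the initiator tRNA to the small ribosomal subunit, with eIF1, eIF1A, eIF3 and eIF5. The eIF4 factors bind the cap of the mRNA, unwind its leader and join it to eIF3, and eIF5B then joins the large subunit. The elongation factors eEF1 and eEF2 bring each amino acid to the ribosome and move the ribosome along. Under stress, any of the eIF2 kinases can phosphorylate eIF2 alpha, which blocks the exchange factor eIF2B, lowers translation in general and favours that of ATF4. Misfolded proteins in the endoplasmic reticulum are the signal for the kinase PERK, and blocking the proteasome is known to activate this response.

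Of the 65 genes, 12 passed 2-fold, with 6 higher and 6 lower. The higher genes were EIF1, EIF1B, EIF2AK3, EIF3E, EIF3H and EIF4A1, of which EIF4A1 was lower when summed with its read-through gene, and the lower ones were EEFSEC, EIF2B1, EIF2B3, EIF3B, EIF4G1 and EIF5A. Over all genes of the table, 18.3% passed 2-fold, 8.08% higher and 10.2% lower. With this pseudocount of 1 FPKM the share of translation factors past 2-fold was thus near the background. With a pseudocount of 0.1 FPKM, 8 of the 65 genes were higher and 6 lower, against 1576 and 1658 of all 10987 genes. The share of translation factors past 2-fold was then below that of all genes. That comparison was not matched for level. The pseudocount matters most for low values, and the untreated median was 33.3 FPKM for the 65 genes and 5.85 FPKM for all genes. With the pseudocount of 1 FPKM and every gene under 1 FPKM in either library dropped, 6 of 62 translation factors were higher and 6 lower. Over all genes these counts were 710 and 959 of 9139, so the shares were close. At 1.5-fold, 19 of the 65 genes were higher and 14 were lower, against 20.8% and 21.6% of all genes, or 42.4% in either direction. The 19 included EIF4E3, which was under 1 FPKM in both libraries and was listed only through its bort-treated value. The median log2 difference of the 65 genes was -0.08, beside 0.00 over all genes, and turned to 0.02 with upper-quartile scaling or with scaling to the total without the 20 most abundant genes. As a set the translation factors thus differed in both directions. At 2-fold they did so about as often as other genes with a pseudocount of 1 FPKM. They did so less often with 0.1 FPKM, where genes were not matched for level.

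**Figure D1:**
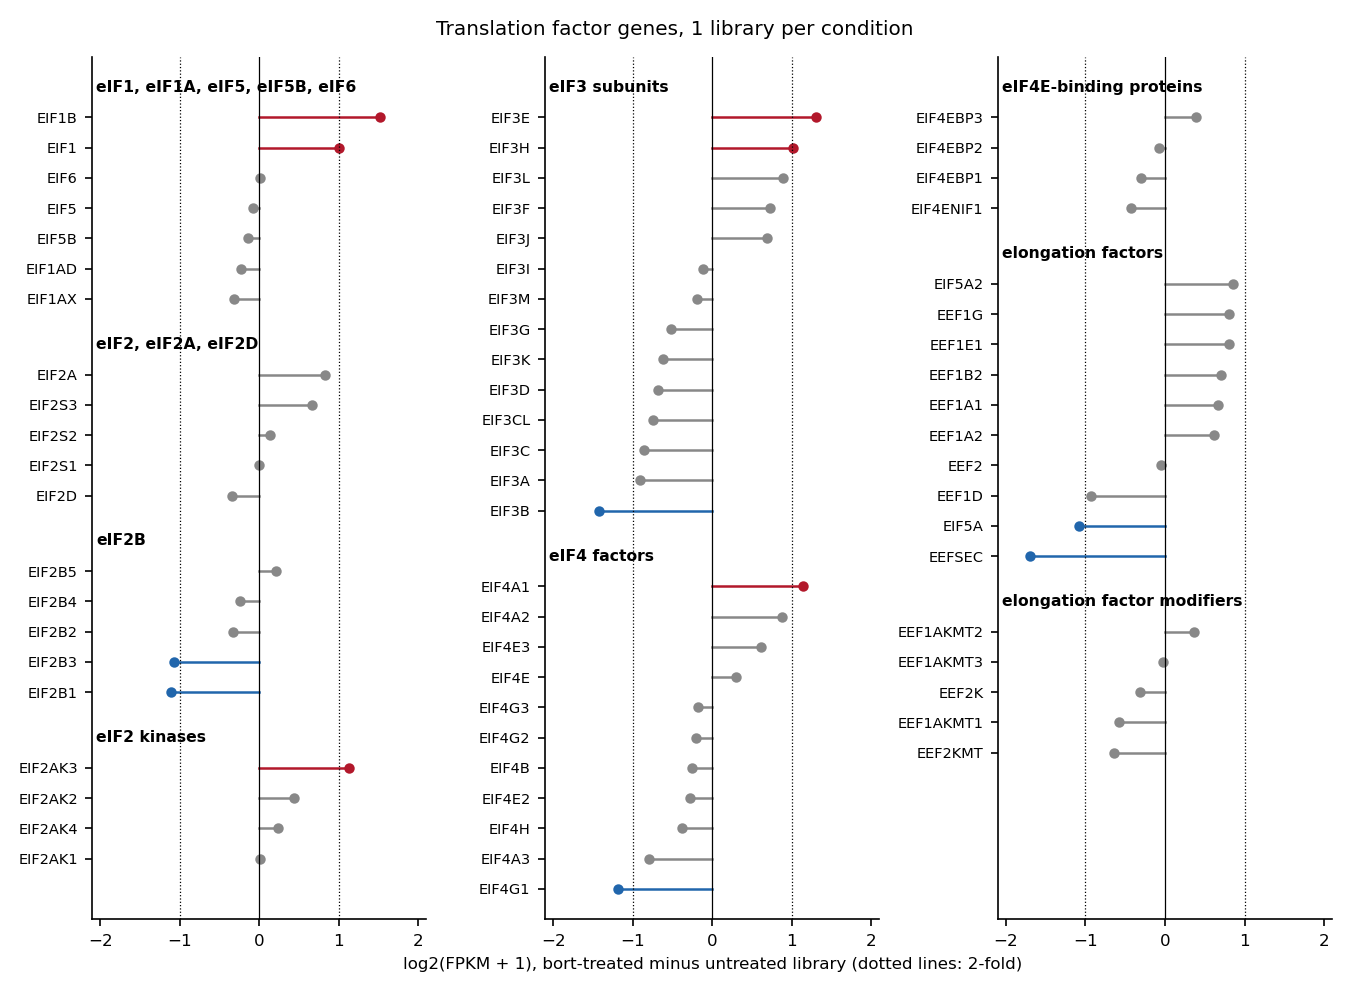
Log2 differences of FPKM + 1 (horizontal axis, bort-treated minus untreated) for the 65 translation factor genes, 1 point per gene, grouped by role. Dotted lines mark 2-fold, red genes are higher and blue genes lower by 2-fold or more, and every role with 7 or more genes holds values on both sides of 0.

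These genes were among the abundant ones of both libraries. Their median was 33.3 FPKM untreated and 33.2 FPKM with bort, beside 5.85 and 6.02 FPKM over all genes. EEF2, EEF1A1 and EEF1G stood highest, at ranks 9, 18 and 36 of the untreated library and 19, 15 and 21 of the bort-treated one. The 65 genes together held 2.51% of the summed FPKM of the untreated library and 2.66% of that of the bort-treated library. At the other end the untreated value of EIF4E3 was 0.0744 FPKM, and no member was listed at 0.

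The mRNAs of many translation factors, like those of ribosomal proteins, are known to begin with a C followed by a tract of pyrimidines (a TOP start), through which mTOR and LARP1 control their translation. The RefSeq promoter table (GRCh38.p14) held starts for 51 of the 65 genes. In 12 of the 51, or 23.5%, a C stood at an annotated start and at least 4 further C or T followed it directly on the coding strand. The share was 7.75% of the 8544 genes of the deposited table that have a promoter there, and 5.14% of all 27305 genes of the promoter table. The windows of 6 of the 12 are shown because they include the most abundant members and both directions of difference, from 10 bases before to 20 bases from the annotated start, with the tract in capitals.
EEF1A1 (chr6:73521013-73521042, minus strand): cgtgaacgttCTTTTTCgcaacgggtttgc
EEF1B2 (chr2:206159885-206159914, plus strand): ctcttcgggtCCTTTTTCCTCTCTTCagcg
EIF3F (chr11:7987327-7987356, plus strand): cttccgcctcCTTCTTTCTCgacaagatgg
EEF2 (chr19:3985444-3985473, minus strand): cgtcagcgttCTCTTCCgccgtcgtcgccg
EIF3D (chr22:36529147-36529176, minus strand): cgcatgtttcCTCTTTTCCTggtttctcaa
EIF3K (chr19:38619178-38619207, plus strand): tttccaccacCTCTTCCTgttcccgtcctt
The tract was 16 bases long in EEF1B2, 10 in EIF3F and EIF3D, 8 in EIF3K and 7 in EEF1A1 and EEF2. Both directions of difference occurred among these genes. Of the 12, 6 had a log2 difference above 0 and 6 below, with a median of 0.30. None was past 2-fold, beside 18.3% of all genes. By 1.5-fold 6 were higher and 2 lower, beside 20.8% and 21.6% of all genes. EEF1A1, EEF1B2 and EIF3F were among the higher genes, EIF3D and EIF3K among the lower, and EEF2 differed little, at 944 and 913 FPKM. The element TGATGNAA, the core of the site bound by ATF4 with its C/EBP partners, was looked for on both strands of the 300 promoter bases. It occurred for 1 of the 51 genes, EIF4E3, or 1.96%, and for 2.42% of the genes of the deposited table.

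The factors of start codon selection split by gene. EIF1, which keeps the small subunit from settling on a wrong start codon, was at 35.5 FPKM untreated and 72.2 FPKM with bort, a log2 difference of 1.00 that was just short of 2-fold with median-of-ratios scaling and at 0.93 with the GC trend removed. Its close paralogue EIF1B was at 13.4 and 40.3 FPKM, a log2 difference of 1.52 and the highest among the 65 genes. EIF1B thus went from 0.38 to 0.56 of the level of EIF1. EIF1AX, the gene of eIF1A, was at 54.2 and 43.1 FPKM, so the partners eIF1 and eIF1A differed in opposite directions. The others lay close to their untreated level. EIF5, which triggers GTP hydrolysis on eIF2, was at 21.5 and 20.3 FPKM. EIF5B was at 81.3 and 73.7 FPKM, EIF6, which keeps free large subunits apart, at 97.2 and 97.7 FPKM, and EIF1AD, a gene with an eIF1A-like domain, at 13.4 and 11.3 FPKM.

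The subunits of eIF2 differed unequally. EIF2S1, the alpha subunit that the kinases phosphorylate, was at 33.3 FPKM untreated and 33.2 FPKM with bort. EIF2S2, the beta subunit, was at 158 and 173 FPKM. EIF2S3, the gamma subunit that binds GTP and the initiator tRNA, was at 107 and 169 FPKM, a log2 difference of 0.66. EIF2S2 and EIF2S3 thus stood far above EIF2S1 in both libraries, and EIF2S3 went from 3.21 to 5.08 times EIF2S1. EIF2A and EIF2D are separate proteins that can deliver the initiator tRNA without eIF2. EIF2A was at 16.5 and 29.9 FPKM and EIF2D at 13.4 and 10.4 FPKM. The median of these 5 genes was 0.13, and -0.08 with the GC trend removed.

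All 4 eIF2 kinases were at or above their untreated level, but only EIF2AK3 with the GC trend removed. Over all genes, 5526 of 10987 were above their untreated level. Only EIF2AK3 of the 4 passed 2-fold, beside 8.08% of all genes that were higher by 2-fold. EIF2AK3, the gene of PERK, was at 2.54 FPKM untreated and 6.76 FPKM with bort, a ratio of 2.66 and a log2 difference of 1.13. With the GC trend removed this difference was 0.82 and short of 2-fold. EIF2AK2, the gene of PKR, which senses double-stranded RNA, was at 3.92 and 5.70 FPKM. EIF2AK4, the gene of GCN2, which senses uncharged tRNA, was at 4.16 and 5.09 FPKM. EIF2AK1, the gene of HRI, which senses the lack of haem and is best known from red cell precursors, was at 28.3 and 28.6 FPKM. HRI was therefore the most abundant kinase mRNA in both libraries, but its excess over EIF2AK3 went from 11.13-fold to 4.22-fold. The median log2 difference of the kinases was 0.34, and -0.01 with the GC trend removed, where EIF2AK1, EIF2AK2 and EIF2AK4 lay at -0.10, -0.01 and -0.02.

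Of the exchange factor eIF2B, 4 of the 5 subunit genes were below their untreated level, beside 5461 of all 10987 genes. By 2-fold 2 of the 5 were lower, beside 10.2% of all genes. EIF2B1, the alpha subunit through which eIF2B reads the phosphorylation of eIF2, was at 59.4 FPKM untreated and 27.1 FPKM with bort. EIF2B3, the gamma subunit of the catalytic part, was at 51.5 and 23.8 FPKM. Their log2 differences were -1.11 and -1.08, and EIF2B3 was short of 2-fold, at -0.98, with upper-quartile scaling and with scaling to the total without the 20 most abundant genes. The 3 other subunits were less abundant and differed less. EIF2B2 was at 8.54 and 6.58 FPKM, EIF2B4 at 15.8 and 13.3 FPKM, and EIF2B5, which holds the catalytic site, at 11.6 and 13.5 FPKM. With the GC trend removed EIF2B2, EIF2B4 and EIF2B5 were at -0.15, -0.04 and 0.31, and EIF2B1 and EIF2B3 at -1.13 and -1.21. EIF2B1 and EIF2B3 stood out by level in the untreated library, and in the bort-treated library the 5 genes lay closer together, with 4.11-fold between the highest and the lowest in place of 6.96-fold.

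Of 7 genes that regulate the kinases or reverse their mark, 6 were listed, with 1 higher and 1 lower by 2-fold. Over all genes, 8.08% were higher and 10.2% lower by 2-fold. DNAJC3, whose product restrains PERK and PKR, was at 6.56 and 16.4 FPKM, and GCN1, an activator of GCN2, at 60.5 and 28.3 FPKM. Both were short of 2-fold with the GC trend removed, at 0.79 and -0.74, and GCN1 also at -0.97 with upper-quartile scaling and with scaling to the total without the 20 most abundant genes, while PPP1R15A passed it at 1.16 with the GC trend removed. PPP1R15A, the inducible subunit of the eIF2 alpha phosphatase, was at 53.9 and 97.2 FPKM, and its constitutive counterpart PPP1R15B at 9.07 and 11.4 FPKM. Beside 8.08% higher and 10.2% lower of all genes, 3 of 9 genes known to follow eIF2 phosphorylation were higher and none lower by 2-fold. These were DDIT3 with a log2 difference of 3.43, ATF3 with 1.88 and SESN2 with 1.30, while ATF4 was at 154 and 192 FPKM. PPP1R15A is in both of these lists, and EIF4EBP1, also in the list of 9, was at 77.8 and 63.2 FPKM.

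**Figure D2:**
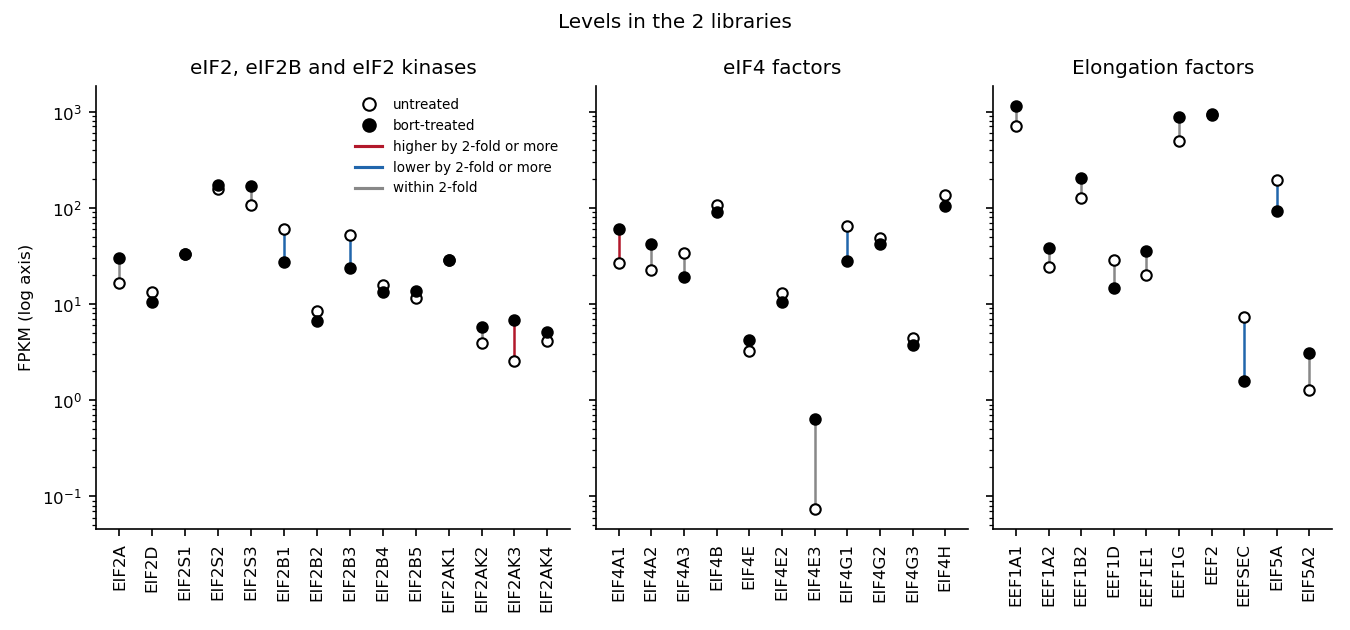
FPKM on a log axis for the genes of eIF2, eIF2B and the eIF2 kinases, for the eIF4 factors and for the elongation factors, with open points for the untreated and filled points for the bort-treated library. Lines join the libraries and are red or blue where the genes were higher or lower by 2-fold or more on the FPKM + 1 scale. The 3 most abundant elongation factors lie at 499 FPKM or more in both libraries, whereas EIF4E and the kinases other than EIF2AK1 lie below 10 FPKM.

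The genes of the eIF3 complex lay on both sides of their untreated level. eIF3 is the largest initiation factor and holds the small subunit, eIF2 and the eIF4 factors together. Its 14 listed genes, EIF3C and its copy EIF3CL included, comprised 5 that were higher and 6 that were lower by 1.5-fold. Their median log2 difference was -0.36. Over all genes, 20.8% were higher and 21.6% lower by 1.5-fold. EIF3E was at 58.7 FPKM untreated and 147 FPKM with bort, a log2 difference of 1.31. EIF3H was at 36.2 and 73.8 FPKM, a log2 difference of 1.01. With the GC trend removed both were at 0.82 and short of 2-fold. EIF3L was at 48.0 and 90.1 FPKM, EIF3J at 53.4 and 87.1 FPKM, and EIF3F at 13.5 and 23.0 FPKM. With the GC trend removed their log2 differences were 0.81, 0.13 and 0.74. EIF3L shared 47.3% of its 50-base stretches with other genes. EIF3E, EIF3F, EIF3H and EIF3L belong to the part of the complex that yeast lacks, and EIF3J is a loosely bound subunit that helps eIF3 to attach to the ribosome.

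On the other side, EIF3B was at 79.8 FPKM untreated and 29.2 FPKM with bort. Its log2 difference of -1.42 was the lowest of the complex and passed 2-fold under each setting run. EIF3A, the largest subunit and the scaffold of the complex, was at 99.6 and 52.7 FPKM. EIF3C was at 77.9 and 42.5 FPKM and EIF3CL at 203 and 120.0 FPKM. These genes share 96.8% of the 50-base stretches of the EIF3C transcript, so the division between them is uncertain, and their sum of 280.5 and 163 FPKM differed by -0.78 on the log2 scale. EIF3D, which can bind the cap of some mRNAs itself, was at 77.0 and 47.8 FPKM, EIF3K at 152 and 98.6 FPKM and EIF3G at 91.2 and 63.3 FPKM. EIF3M at 48.0 and 41.9 FPKM and EIF3I at 273 and 252 FPKM lay closest to their untreated level as listed. With the GC trend removed EIF3M was at -0.60 and past 1.5-fold, while EIF3G was at -0.13.

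Grouped by structure, a grouping made after the values were seen, the genes of the core that yeast shares (EIF3A, EIF3B, EIF3C, EIF3CL, EIF3G and EIF3I) all lay below their untreated level. EIF3I lay at 0.06 with the GC trend removed. The FPKM of this core summed to 824 in the untreated and 559.8 in the bort-treated library. The subunits d, e, f, h, k, l and m summed to 433 and 522 FPKM, with 4 genes above and 3 below. EIF3E, at 0.74 of EIF3B in the untreated library, stood at 5.02 times EIF3B in the bort-treated one.

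**Figure D3:**
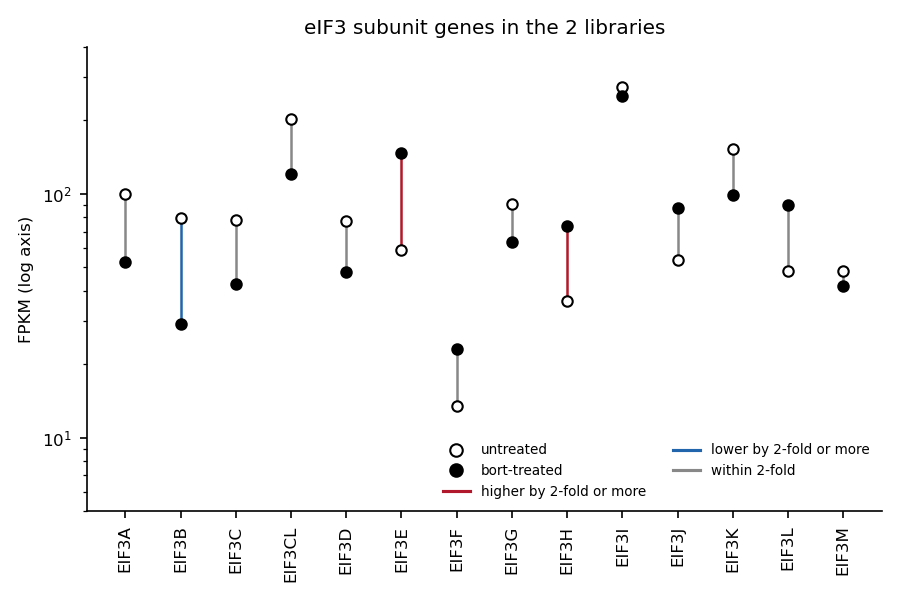
FPKM on a log axis for the 14 eIF3 genes, with open points for the untreated and filled points for the bort-treated library. The filled points lie above the open ones for EIF3E, EIF3F, EIF3H, EIF3J and EIF3L and below them for the other 9 genes, and the order of EIF3B and EIF3E is reversed between the libraries.

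Within the cap-binding complex eIF4F, the scaffold was lower and the helicase genes were higher as listed. EIF4G1, the scaffold, was at 63.9 FPKM untreated and 27.7 FPKM with bort, a log2 difference of -1.18, and -0.88 with the GC trend removed. EIF4G2, a relative that works without the cap-binding protein, was at 47.9 and 41.7 FPKM, and EIF4G3, the other scaffold, at 4.40 and 3.77 FPKM. EIF4E, which binds the cap, was at 3.24 and 4.21 FPKM, far below EIF4G1 and EIF4A1. Its log2 difference was 0.30, and -0.09 with the GC trend removed. EIF4E2, a cap-binding repressor, was at 13.0 and 10.5 FPKM, and EIF4E3 at 0.0744 and 0.635 FPKM. The difference of EIF4E3 rests on the pseudocount at this level, with a log2 difference of 0.61, and 2.08 with a pseudocount of 0.1 FPKM. Its depth is unknown. The listed genes are those at 0.501 FPKM or more in at least 1 library. EIF4E3 was therefore listed only through its bort-treated value and could only be higher.

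The helicase gene EIF4A1 was at 26.4 FPKM untreated and 59.5 FPKM with bort, a log2 difference of 1.14. This direction depends on how fragments were divided between genes. The read-through gene SENP3-EIF4A1 contains 83.0% of the 50-base stretches of EIF4A1, and it was listed at 83.8 and 7.31 FPKM. The sum was 110.2 FPKM untreated and 66.8 FPKM with bort, a log2 difference of -0.71 and the opposite direction. EIF4A2, its close paralogue, shared 5.83% of its 50-base stretches with other genes, and was at 22.3 and 41.7 FPKM with a log2 difference of 0.88. EIF4A3, a helicase of the exon junction complex rather than of initiation, was at 33.9 and 19.0 FPKM. EIF4B and EIF4H, which stimulate the helicase, were at 107 and 89.6 FPKM and at 135 and 103 FPKM. The median of the 11 eIF4 genes was -0.20.

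On the log2(FPKM + 1) scale the 4 genes of eIF4E-binding proteins lay within 1.5-fold. EIF4EBP1, the main binding protein that mTOR releases from eIF4E, was at 77.8 FPKM untreated and 63.2 FPKM with bort, and EIF4EBP2 at 11.6 and 10.9 FPKM. EIF4E thus stood at 0.04 of EIF4EBP1 in the untreated and 0.07 in the bort-treated library. With the GC trend removed the log2 difference of EIF4EBP1 was 0.17 in place of -0.30. EIF4EBP3 was at 0.631 and 1.13 FPKM, a level where the pseudocount sets the log2 difference, which was 0.39, and 0.84 without a pseudocount. It shares 71.8% of its 50-base stretches with the read-through gene ANKHD1-EIF4EBP3, and the sum of both differed by 0.63. EIF4ENIF1, which carries eIF4E into the nucleus, was at 5.84 and 4.08 FPKM.

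Of 10 listed genes in the partners of the cap and the poly(A) tail, 2 were higher and 1 lower by 2-fold. Over all genes, 8.08% were higher and 10.2% lower by 2-fold. PDCD4, an inhibitor of the eIF4A helicase, was at 4.99 FPKM untreated and 17.0 FPKM with bort, a log2 difference of 1.59. PAIP2, which pulls the poly(A)-binding protein off mRNA, was at 12.9 and 31.5 FPKM. DDX3X, a helicase that helps initiation on structured leaders, was at 34.5 and 11.5 FPKM. The poly(A)-binding protein gene PABPC1 itself was at 232 and 307 FPKM, and LARP1, which binds TOP mRNAs, at 46.7 and 28.5 FPKM. In the mTOR and MNK list, 2 of 12 listed genes were higher and 2 lower by 2-fold, beside 8.08% and 10.2% of all genes. The higher genes, DDIT4 at 11.6 and 82.0 FPKM and SESN2 at 9.02 and 23.7 FPKM, encode inhibitors of mTOR signalling. The lower genes were MLST8, a subunit of the mTOR complexes, at 14.6 and 4.68 FPKM, and RPS6KB2, an S6 kinase, at 21.1 and 8.76 FPKM. With the GC trend removed MLST8 and RPS6KB2 were short of 2-fold, at -0.95 and -0.71, and DDIT4 and SESN2 were at 3.35 and 1.68.

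The median of the elongation factors was 0.65 over 10 genes, while their mean was 0.07. By 1.5-fold 6 were higher and 3 lower, beside 20.8% and 21.6% of all genes. EEF1A1, which carries aminoacyl-tRNA to the ribosome, was at 715 FPKM untreated and 1138 FPKM with bort. Its paralogue EEF1A2, best known from nerve and muscle, was at 24.1 and 37.7 FPKM. The log2 differences of this pair were 0.67 and 0.62, and EEF1A1 stood at 29.63 and 30.21 times EEF1A2. EEF1A1 shared 29.3% of its 50-base stretches with other genes, such as its pseudogenes EEF1A1P5 and EEF1A1P6.

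The exchange complex that recharges eEF1A differed by subunit. EEF1B2 was at 125 and 205 FPKM and EEF1G at 499 and 876 FPKM, log2 differences of 0.71 and 0.81. EEF1D, the other exchange subunit, was at 28.7 and 14.5 FPKM, a log2 difference of -0.93, so EEF1B2 went from 4.37 to 14.14 times EEF1D. With the GC trend removed EEF1D was at -0.45, short of 1.5-fold, and EEF1B2 at 0.66. EEF1B2 shared 45.0% of its 50-base stretches with other genes, so this ratio is uncertain. EEF1G shares 96.7% of its 50-base stretches with the read-through gene AP002990.1, which was listed at 142 and 1.75 FPKM. The sum of both was 641 and 878 FPKM, a log2 difference of 0.45, which was above 0 but short of 1.5-fold. EEF1E1, whose product belongs to the aminoacyl-tRNA synthetase complex, was at 19.9 and 35.8 FPKM.

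EEF2, the factor that moves the ribosome by 1 codon, was the most abundant member of the untreated library and lay close to it in the bort-treated library, at 944 and 913 FPKM. EEFSEC, which brings selenocysteine to the ribosome, was at 7.33 and 1.57 FPKM, the lowest of the 65 genes with a log2 difference of -1.70 that passed 2-fold under each setting run. EIF5A, which helps ribosomes through stretches such as prolines and into termination, was at 195 and 91.6 FPKM, a log2 difference of -1.08. It was short of 2-fold at -0.98 with upper-quartile scaling and with scaling to the total without the 20 most abundant genes, and at -0.78 with the GC trend removed. Its paralogue EIF5A2 was at 1.28 and 3.12 FPKM, so the pair differed in opposite directions while EIF5A still exceeded EIF5A2 by 29.38-fold in the bort-treated library.

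Of the genes that modify elongation factors, EEF2K, the kinase that switches off eEF2, was at 6.40 FPKM untreated and 4.95 FPKM with bort. EEF2KMT, which methylates eEF2, was at 9.29 and 5.58 FPKM, a log2 difference of -0.64, and -0.36 with the GC trend removed. The eEF1A methyltransferase gene EEF1AKMT1 was at 3.12 and 1.77 FPKM, a log2 difference of -0.58, and -0.82 without a pseudocount. The 3 listed eEF1A methyltransferase genes lay at or below 4.76 FPKM in both libraries. Of 8 listed genes that make the hypusine of eIF5A and the diphthamide of eEF2, DPH3 was higher and DPH2 lower by 2-fold. Over all genes, 8.08% were higher and 10.2% lower by 2-fold. DPH2, part of the enzyme of the first diphthamide step, was at 40.6 and 12.5 FPKM, and DPH3, which supplies it with electrons, at 9.99 and 21.3 FPKM. With the GC trend removed DPH3 was at 0.57, short of 1.5-fold, and DPH2 at -1.25. DHPS, the first enzyme of hypusine synthesis, was at 13.6 and 8.62 FPKM.

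Beyond elongation, and beside 18.3% of all genes, 7 listed genes of reinitiation, termination and ribosome recycling held none past 2-fold. They ranged from -0.53 for ETF1, the release factor, to 0.68 for PELO, which rescues stalled ribosomes. The 9 mitochondrial initiation and elongation factors also held none past 2-fold, with TUFM, the mitochondrial counterpart of eEF1A, at 267 and 146 FPKM and MTRF1L at 7.72 and 12.5 FPKM. A list of 9 members long known as TOP mRNAs, written with earlier results of these data known, had a median of 0.71. Of these 9, 6 were higher and 1 lower by 1.5-fold, beside 20.8% and 21.6% of all genes. EIF3E, EIF3H, EEF1G, EIF3F, EEF1B2 and EEF1A1 were the higher genes and EEF1D the lower one, with EIF4B and EEF2 between. EEF1G was at 0.45, short of 1.5-fold, when summed with its read-through gene. With the GC trend removed EEF1A1 and EEF1D were at 0.49 and -0.45, also short of 1.5-fold, and the other higher genes stayed past it. This list is not the set found by sequence above. The annotated start of EEF1G lacked the tract, and EEF1D, EIF3E and EIF3H had no annotated start to look at.

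Among the translation factors, as in the whole table, genes with GC-poor transcripts tended to be higher and those with GC-rich transcripts lower. Across the 65 genes, which share both libraries, the Spearman correlation between GC content and log2 difference was -0.48, and across 10907 genes with a GENCODE 29 transcript it was -0.47. The 32 members under the median GC content of 49.1% had a median log2 difference of 0.40, and the 33 others one of -0.33. Within eIF3 the 5 genes above 0 had a median GC content of 45.7% and the 9 below had one of 54.4%, with EIF3A at 43.2% and EIF3M at 40.6% among the latter. With the trend over all genes removed, 4 members were higher and 5 lower by 2-fold, against 7.12% and 6.41% of all genes, or 13.5% in either direction. The higher members were then EIF1B, EIF4A1, EEF1G and EEF1A2, and the lower ones EEFSEC, EIF3B, EIF3A, EIF2B3 and EIF2B1. Of the higher ones, EIF4A1 was at -0.71 and EEF1G at 0.45 when summed with their read-through genes, without removal of the trend. The part of GC content in the other differences was not tested further.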

How the data were processed

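RNA of 1 bort-treated and 1 untreated THP1 culture was sequenced. FPKM per gene were deposited by the authors, who used HISAT2 2.0.4 for alignment and StringTie 1.2.3 for abundance. The submitters' processing notes name GRCh37. The methods give a stranded KAPA kit and the labels a TruSeq kit. The design was written for FPKM, with no test because each condition has 1 library.

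The table holds genes at 0.501 FPKM or more in at least 1 library, 10987 in all. FPKM summed to 210026 in the untreated and 221529 in the bort-treated library, with 10.8% and 21.6% of it in the 20 highest genes. Low values were searched for the step that 1 read makes, but among single-transcript genes only 15 and 20 were under 0.2 FPKM, which did not allow it. Depth therefore stays unknown and no counting interval or floor is given.

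Differences were computed as log2(FPKM + 1), and a gene was called past 2-fold. Members, lists and roles were chosen with earlier results of these data known. Every member with a role could be named, and of the other lists the largest differences and the genes past 2-fold, with a few others, such as ATF4, PABPC1, LARP1, DHPS, PPP1R15A and PPP1R15B, chosen for their known role after their values were seen. All 65 identifiers matched GENCODE 29 transcripts (GRCh38), which gave GC content (median over a gene's transcripts) and the share of 50-base stretches of the longest coding transcript found in other genes. This is another build than that of the table, so no coordinates were joined. Start windows came from RefSeq promoters. To remove the GC trend, a lowess curve (span 0.3) over all genes was subtracted. The calculation was tested on simulated data. Python 3.11.15, numpy 2.4.6, pandas 2.3.3, statsmodels 0.14.6 and matplotlib 3.10.9 were used.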

Additional observations from a re-analysis of the deposited data

How the results depend on the processing

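The limits are those of 1 library per condition and of an unknown depth, so the counting error of genes at low FPKM, such as EIF4E3 and EIF5A2, cannot be given. No paired analysis was possible because there was a single library on each side, which also left none to omit in turn. The number of members past 2-fold was 6 higher and 6 lower, and 19 higher and 14 lower at 1.5-fold. Under the other settings it stayed between 4 and 8 higher and between 4 and 6 lower. The 8 include EIF5A2 and EIF4E3, the latter listed only through its bort-treated value. Over all genes the counts went from 888 higher and 1125 lower to 1576 and 1658 with a pseudocount of 0.1 FPKM. Without a pseudocount they were 1654 and 1708 of 10938 genes. For the 12 members past 2-fold, 95 of 96 values computed under other settings had the same direction, and 84 of the 96 were past 2-fold. The exception in direction was EIF4A1, at -0.71 when summed with SENP3-EIF4A1. Some of the 96 could not differ. The filter at 1 FPKM in both libraries left all 12 values as they were, and summing changed only EIF4A1. The 12 were also chosen by these same 2 libraries, so the tally says nothing of replicate error.

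The median of all members was -0.08. It was -0.09 with median-of-ratios scaling, with the GC trend removed and with 0.1 FPKM or nothing as pseudocount, -0.13 after dropping genes under 1 FPKM in either library, -0.01 as a mean and 0.02 with upper-quartile scaling and with scaling to the total without the 20 most abundant genes. The median of eIF2 was 0.13, and it was 0.12 with median-of-ratios scaling, 0.24 with either of those other scalings, 0.25 as a mean and -0.08 with the GC trend removed. The median of the kinases was 0.34, against 0.41 at a 0.1 FPKM pseudocount, 0.42 without one, 0.43 with either scaling, 0.46 as a mean and -0.01 with the GC trend removed. The median of eIF3 was -0.36, against -0.25 with either scaling, -0.26 with the GC trend removed and -0.10 as a mean. The median of eIF4 was -0.20, against -0.22 with a pseudocount of 0.1 FPKM or none, -0.23 without the genes under 1 FPKM in either library, -0.09 with either scaling, -0.29 with the GC trend removed and -0.03 as a mean. The median of the elongation factors was 0.65, against 0.66 with a pseudocount of 0.1 FPKM or none, 0.64 with median-of-ratios scaling, 0.75 with either scaling, 0.45 with the GC trend removed and 0.07 as a mean. Summing members with the gene that shares most of their sequence, a setting chosen after seeing the data, gave medians of -0.11 for all members, -0.26 for eIF4 and 0.54 for the elongation factors. Upper-quartile scaling and scaling to the total without the 20 most abundant genes each moved the median of all genes by 0.09 on the log2 scale, and the share of higher genes among all genes past 2-fold from 44.1% to 53.6% and 53.7%. It was 52.6% with the GC trend removed. The cause of these shifts was not tested.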
